A study of Rattus norvegicus with 6 samples.

Results

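Cytosolic ribosomal protein genes encode the protein part of the ribosome outside mitochondria, and their transcripts were compared in cultured rat cells given a control siRNA or an siRNA against Mt2. Members were the rows of the count files whose symbol is Rpl or Rps followed by a number, with the endings a, x, y or l and a further digit allowed, together with Rplp0 to Rplp2 and Rpsa. Pseudogene names, locus names and the S6 kinase genes were left out. The rule found 85 of 18237 rows, 52 named for the large and 33 for the small subunit. Of these, 76 had enough counts to be tested (45 large, 31 small) and 9 did not. The data are RNA-seq gene counts of 6 libraries, 3 from cells given a control siRNA (siNT) and 3 from cells given an siRNA against the metallothionein gene Mt2 (siMt2). The cells are labelled NRVM and described as derived from embryonic rat myocardium, without strain or sex. Both groups were kept in medium with fetal bovine serum. A step with dexamethasone and isobutylmethylxanthine, followed by insulin, stands in the protocol of every sample; whether it was applied to these cultures is not stated. The siRNA sequences, doses and times are not given in the sources used here. Nothing in the labels says that replicates came from separate cultures, so p-values here reflect the spread of libraries alone, and that spread may be technical.

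A ribosome is built from a small subunit, which reads the mRNA, and a large subunit, which joins the amino acids, and the proteins are needed in matched numbers. The mRNAs of these proteins carry a terminal oligopyrimidine (TOP) tract, an unbroken stretch of C and T at the very start of the transcript, through which growth signalling by mTOR and the RNA-binding protein LARP1 controls their translation together. Mammalian genomes hold many processed pseudogenes of these genes, near-identical copies to which reads can be assigned. Metallothionein, the targeted protein, binds zinc, which several ribosomal proteins hold in zinc fingers.

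The stretch around the start site of 12 genes is shown because it carries a feature most of these genes share, and because they include the largest rises and falls of each subunit that had an entry. The sequences are RefSeq promoters of build GRCr8, which is not the build of the counts. Each runs from 40 bases before to 20 bases from the annotated start onward, 5′ to 3′, and capitals mark the longest unbroken run of C and T within 20 bases on either side of the start. The first 3 genes are rises and the next 3 falls of the large subunit, followed by 3 rises and 3 falls of the small subunit.
Rpl37a (GRCr8 chr9:81748051-81748110, plus strand): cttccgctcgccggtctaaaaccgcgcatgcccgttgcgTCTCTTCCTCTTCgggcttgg
Rpl22l1 (GRCr8 chr2:113683156-113683215, plus strand): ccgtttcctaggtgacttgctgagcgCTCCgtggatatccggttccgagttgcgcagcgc
Rpl10a (GRCr8 chr20:6390493-6390552, plus strand): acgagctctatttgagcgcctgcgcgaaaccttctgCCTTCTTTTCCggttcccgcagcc
Rplp1 (GRCr8 chr8:71290853-71290912, minus strand): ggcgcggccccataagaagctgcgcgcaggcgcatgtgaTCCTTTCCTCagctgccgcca
Rplp0 (GRCr8 chr12:46718371-46718430, minus strand): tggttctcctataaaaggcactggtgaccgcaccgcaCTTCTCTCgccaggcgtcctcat
Rpl7a (GRCr8 chr3:30637096-30637155, plus strand): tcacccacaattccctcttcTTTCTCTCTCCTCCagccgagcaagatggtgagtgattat
Rps26 (GRCr8 chr7:1643385-1643444, minus strand): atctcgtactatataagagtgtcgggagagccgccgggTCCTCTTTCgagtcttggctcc
Rps15a (GRCr8 chr1:181860265-181860324, minus strand): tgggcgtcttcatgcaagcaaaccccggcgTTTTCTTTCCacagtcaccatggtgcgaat
Rps23 (GRCr8 chr2:23814477-23814536, plus strand): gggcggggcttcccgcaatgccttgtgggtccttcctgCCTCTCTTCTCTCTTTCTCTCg
Rps15 (GRCr8 chr7:10068096-10068155, minus strand): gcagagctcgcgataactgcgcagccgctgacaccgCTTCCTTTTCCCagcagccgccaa
Rps12 (GRCr8 chr1:23500035-23500094, plus strand): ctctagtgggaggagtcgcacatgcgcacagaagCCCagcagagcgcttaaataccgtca
Rps16 (GRCr8 chr1:92770618-92770677, plus strand): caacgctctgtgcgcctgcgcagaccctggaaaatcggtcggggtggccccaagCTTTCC

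Of the members, 67 had a promoter entry matched by symbol, and 47 of these (70.1%) held a run of at least 8 pyrimidines, read in the direction of the gene, in that window. Over all 27457 genes with an entry the share was 17.2%. Such a run was present for 14 of 21 members that were higher in the siMt2 libraries, for 10 of 18 that were lower and for 19 of 22 that did not pass the test. A run is cut at the edge of the window, as for Rpl7a, whose 14 capitals follow further pyrimidines upstream. In the window Rps23 had a run of 21 bases, and Rpl22l1, Rps12 and Rps16 had runs of 4, 3 and 6. The motif CTTCCG, the core bound by ETS factors, was found on either strand in the whole promoter entry (250 bases before to 50 after the start) of 38 members (56.7%) and of 18.2% of all genes. The long pyrimidine run was thus present among risers and fallers, and no test was made of its link with the change.

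Mt2a, the rat Mt2 gene, was the check of the labels. In CPM (counts relative to the library total, which was scaled by TMM) the siNT values were 90.7, 169.9 and 93.3 and the siMt2 values 70.7, 87.3 and 142. These overlapped, with a log2 fold change of -0.28 (SE 0.42, edgeR adjusted p = 0.631), so the siMt2 group is named by its label only. Library totals ran from 2859759 to 6817777 counts, and siMt2 replicate 3, the smallest, stood apart from the other siMt2 libraries for several members described below. The labelled cell type had little marker support: of 8 cardiomyocyte genes, which summed to 29.3 to 32.2 CPM in siNT and 51.3 to 63.7 CPM in siMt2 libraries, only Tnnt2 had enough counts for a test (higher), and Myh6, Actc1, Tnni3, Mybpc3 and Myl7 had 9, 4, 3, 4 and 6 counts over all libraries. Summed markers of fibroblasts (8 of 8 in the files) lay at 7444 to 7619 CPM in siNT and 9528 to 13519 CPM in siMt2 libraries. Col1a1 held the most counts of these (189029 over all libraries), while Pdgfra, Dcn and Lum had 2, 50 and 51. Summed markers of smooth muscle (5 of 5) lay at 2315 to 2354 and at 4084 to 4175 CPM. Of these 5, 4 were higher and 1, Pdgfrb, was lower (log2 fold change -0.46, SE 0.046). The endothelial marker Eng, 1 of 4 listed, lay at 69.1 to 78.8 and at 24.7 to 36.8 CPM, and leukocyte markers (4 of 4) at 22.7 to 27.3 and at 14.2 to 17.3 CPM. The leukocyte sum was almost all Cd14, with 582 counts over all libraries against 2, 17 and 31 for Ptprc, Cd68 and Csf1r. The part of these shifts in the results below was not tested.

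Transcripts of ribosomal proteins did not move as a block between the groups; about as many rose as fell, by small amounts. Of 76 tested members, 28 (36.8%) were higher in the siMt2 libraries, 21 (27.6%) were lower and 27 did not pass an edgeR adjusted p of 0.05. Over all 11726 genes tested, 50.9% passed, 25.8% higher and 25.1% lower. Groups without any overlap were seen for 50 members (65.8%), against 57.6% of all genes. At a mean of at least 100 CPM, which 72 members and 2309 other genes reached, the order was the other way, 66.7% of members and 74.2% of the other genes. The median log2 fold change was 0.039 for the members and 4.9e-04 for all genes. The spread was narrower: the middle 50% of members lay between -0.20 and 0.23, and of all genes between -0.31 and 0.35. No tested member had a log2 fold change beyond 1 in either direction, whereas 9.35% of all genes and 3.51% of the 2309 other genes at that level did. Of those other genes 28.7% were higher and 41.7% lower, with a median of -0.068. Of the called members, Rpl37a rose most (1.56-fold) and Rplp1 fell most (0.589-fold), and 22 of the 49 called changed by less than 0.25 on the log2 scale. In bulk libraries, fewer cells of a type and less RNA per cell cannot be told apart.

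By subunit, 16 of 45 large subunit genes (35.6%) were higher and 15 (33.3%) lower, with a median log2 fold change of 0.0071. Of 31 small subunit genes, 12 (38.7%) were higher and 6 (19.4%) lower, with a median of 0.076. Over all genes tested, 25.8% were higher and 25.1% lower. Among the 2309 other genes with a mean of at least 100 CPM, 28.7% were higher and 41.7% lower. The difference between the subunits was not tested. Without siMt2 replicate 3, 30 members were higher and 25 lower.

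**Figure D1:**
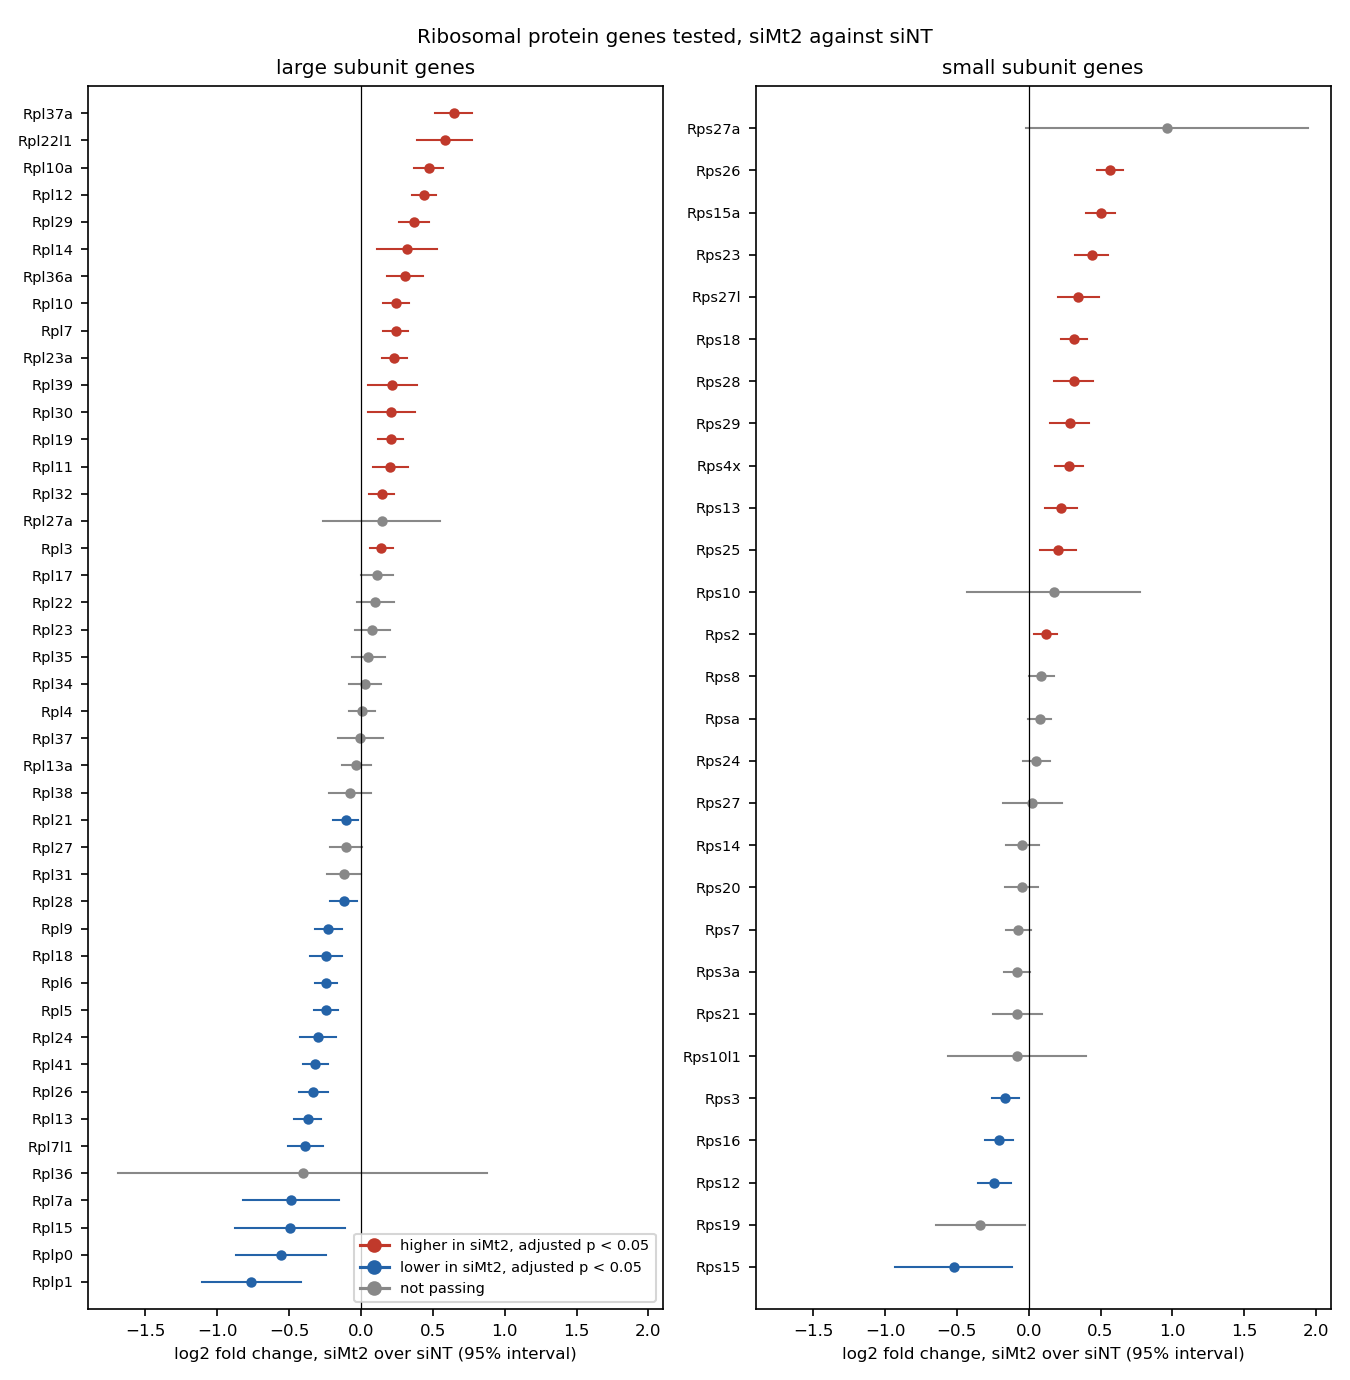
Log2 fold change of 72 of the 76 tested ribosomal protein genes in siMt2 over siNT libraries (x axis) with its 95% interval from edgeR, large subunit left and small subunit right, ordered by change. Red points passed as higher and blue as lower at an adjusted p of 0.05, grey did not pass; changes run from -0.76 (Rplp1) to 0.96 (Rps27a, which did not pass).

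The genes of the P stalk, the arm of the large subunit that recruits the GTPases of elongation, moved in opposite directions. Rplp0, which anchors the stalk and took more counts than any other member, had 2872, 2909 and 2758 CPM in siNT and 2122, 2060 and 1614 CPM in siMt2 libraries. Every siMt2 value lay below every siNT value, and siMt2 replicate 3 was the lowest. Mean levels went from 2847 ± 78.9 to 1932 ± 277 CPM (SD over n = 3 libraries in each group; log2 fold change -0.56, SE 0.12, edgeR adjusted p = 0.0167). Leaving out siNT replicate 1 or siNT replicate 2 ended the call (adjusted p = 0.066 and 0.0627 in edgeR), and without siMt2 replicate 3 the change was -0.44 (6.19e-18). Rplp1, an acidic protein that pairs with Rplp2 at the stalk's tip, went from 599.7, 526 and 522 CPM to 303, 382 and 283 CPM, again without overlap. This was the deepest fall among members (549 ± 43.5 to 323 ± 52.6 CPM; -0.76, SE 0.13, edgeR adjusted p = 0.00668), and it passed in all 16 alternative fits. Rpl12, which sits at the base of the stalk, went the other way, from 626, 632 and 647 CPM to 839, 852 and 891 CPM (0.44, SE 0.040, edgeR adjusted p = 1.63e-08). The ratio of Rplp0 to Rpl12 counts was accordingly 4.59, 4.60 and 4.26 in siNT and 2.53, 2.42 and 1.81 in siMt2 libraries. Rplp2 could not be tested, with 5, 3 and 8 counts in siNT and 11, 4 and 40 in siMt2 libraries; the value of siMt2 replicate 3 stood apart.

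Among the other large subunit genes, Rpl37a, a zinc finger protein, rose most, from 178, 193 and 177 CPM to 276, 268 and 316 CPM (log2 fold change 0.64, SE 0.061, edgeR adjusted p = 2.59e-08). Its groups were far apart relative to their spread. Rpl10a stood at 227, 238 and 227 CPM in siNT and at 323, 324 and 310.2 CPM in siMt2 libraries (0.47, SE 0.048, edgeR adjusted p = 7.84e-08), and its replicates scattered no more than counting error. Its protein forms the L1 stalk, where spent tRNA leaves the ribosome. Rpl29, a small basic protein, rose from 378, 388 and 383 to 510.2, 517 and 449.7 CPM (0.37, SE 0.050). Rpl14 was higher on average (261 ± 21.2 and 324 ± 40.7 CPM; 0.32, SE 0.092, edgeR adjusted p = 0.0173), but its groups overlapped through siMt2 replicate 3 at 279 CPM. It no longer passed when siNT replicate 2, siNT replicate 3 or siMt2 replicate 1 was left out (adjusted p = 0.083, 0.0613 and 0.0625 in edgeR). Rpl3, which lies near the peptidyl transferase centre, rose by little, from 960.2, 947 and 969.9 to 1033, 1040 and 1103 CPM (0.14, SE 0.039, edgeR adjusted p = 0.00447).

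The large subunit genes that fell included members with many counts. Rpl6 stood at 1255, 1276 and 1268 CPM in siNT and 1075, 1061 and 1071 CPM in siMt2 libraries, a fall of 0.24 on the log2 scale that exceeded its scatter many times (SE 0.035, edgeR adjusted p = 8.52e-06). Rpl41, which encodes one of the smallest known proteins, fell from 1162, 1223 and 1182 CPM to 911, 939 and 1015 CPM (log2 fold change -0.32, SE 0.042, edgeR adjusted p = 2.86e-06). Rpl13 fell from 418 ± 9.61 to 323 ± 4.02 CPM (-0.37, SE 0.044) and Rpl24 from 559 ± 24.1 to 457 ± 46.1 CPM (-0.30, SE 0.059). Rpl15 stood at 240.4, 249 and 223 CPM in siNT and 186, 183 and 126 CPM in siMt2 libraries (-0.50, SE 0.15, edgeR adjusted p = 0.0418). It did not overlap, but siMt2 replicate 3 was far below its group. It no longer passed when siNT replicate 1, 2 or 3 or siMt2 replicate 2 was left out (adjusted p = 0.133, 0.119, 0.0632 and 0.0771 in edgeR), with upper quartile scaling (0.0665) or without a count filter (0.0873). Without siMt2 replicate 3 the change was -0.36 (2.05e-07). Rpl7a had few counts for a ribosomal protein gene, 26.4, 32.0 and 24.7 CPM in siNT and 15.6, 24.6 and 19.7 CPM in siMt2 libraries (-0.49, SE 0.16, edgeR adjusted p = 0.0162). It no longer passed when siNT replicate 2 (edgeR adjusted p = 0.0903) or siMt2 replicate 1 (-0.29, 0.182) was left out, by DESeq2 (0.0666) or at equal depth (0.0811). RefSeq names 19 pseudogenes after Rpl7a, against a median of 10.5 for tested members. Whether its row holds all of its reads was not tested, so its fold may not measure its expression.

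Rpl5 and Rpl11, which together carry the 5S ribosomal RNA into the large subunit and can bind the p53 regulator MDM2, did not move together. Rpl5 stood at 777, 819 and 782 CPM in siNT and at 657, 658 and 691 CPM in siMt2 libraries (log2 fold change -0.25, SE 0.040, edgeR adjusted p = 3.88e-05). Rpl11 stood at 208, 211 and 207 CPM in siNT and at 231, 227 and 267 CPM in siMt2 libraries (0.20, SE 0.058, edgeR adjusted p = 0.00644). Neither pair of groups overlapped. Of 8 genes whose proteins line the peptide exit tunnel or its rim, 3 were higher (Rpl23a 0.23, Rpl19 0.21 and Rpl39 0.22 on the log2 scale) and 1 lower, Rpl26 (-0.33, SE 0.048). The share that passed, 50%, was near the 50.9% of all genes and below the 70.3% of tested genes with a mean of at least 100 CPM. Rpl4, which reaches into the tunnel wall, stood at 732, 743 and 740.3 CPM in siNT and 713, 723 and 794 CPM in siMt2 libraries, which overlapped (95% interval of the log2 fold change -0.08 to 0.10). Rpl39 overlapped between groups, and its edgeR adjusted p of 0.0331 rose to 0.129, 0.0868 and 0.0749 without siNT replicate 1, siNT replicate 2 or siMt2 replicate 1, and to 0.053 by DESeq2.

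**Figure D2:**
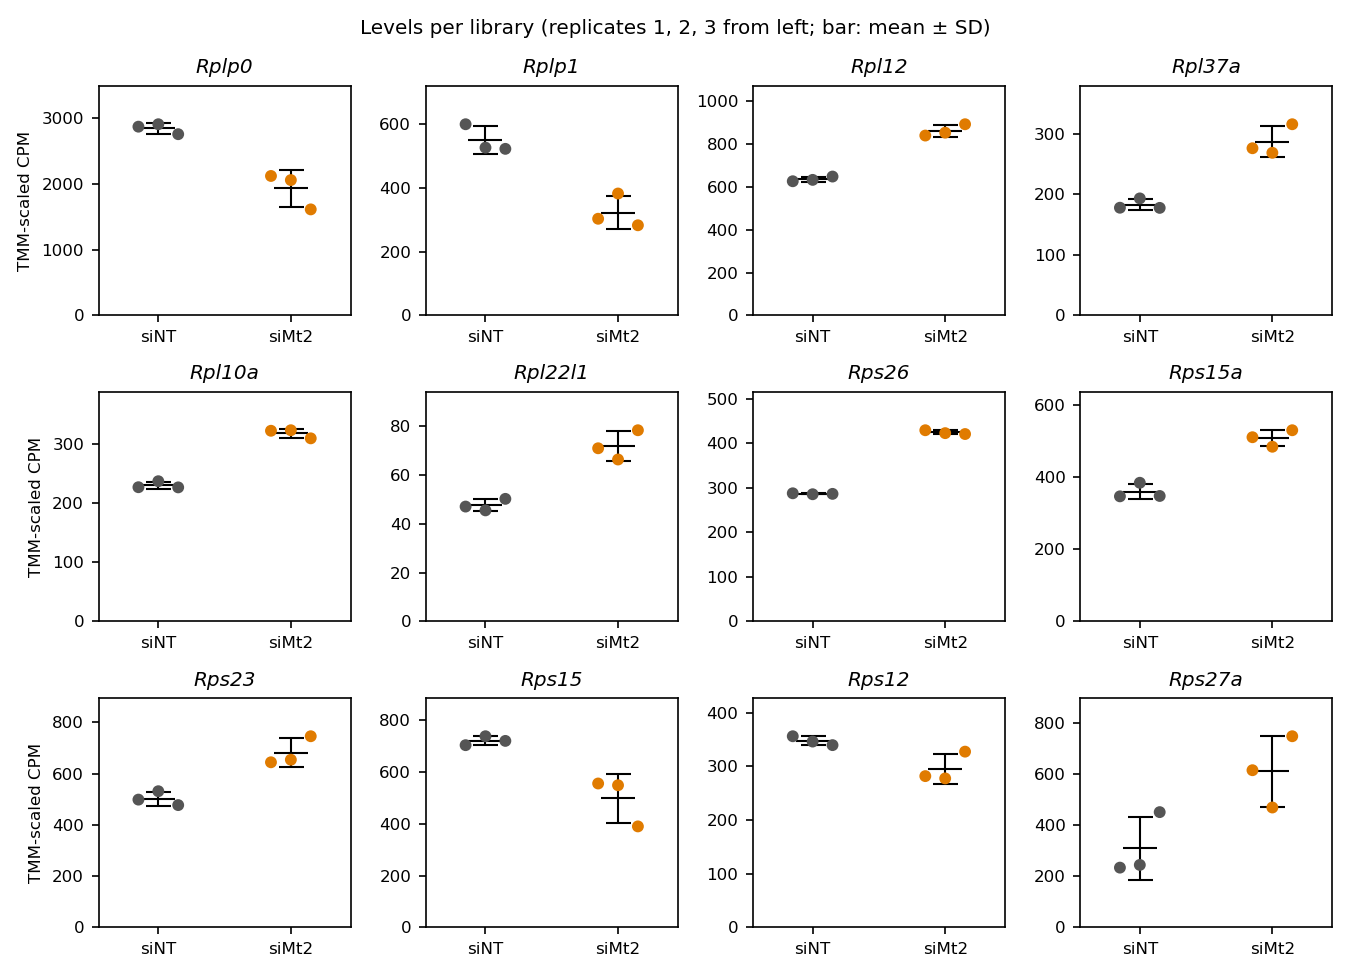
Level of 12 ribosomal protein genes in each library (y axis, TMM-scaled CPM from 0), replicates 1 to 3 from left in siNT (grey) and siMt2 (orange), with the mean and SD of 3 libraries in black. Rplp0, Rplp1, Rps15 and Rps12 lie lower in every siMt2 library, the other 8 higher; siMt2 replicate 3 stands below its group for Rplp0 and Rps15, and siNT replicate 3 above its group for Rps27a.

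In the small subunit, Rps26, a zinc finger protein at the exit of the mRNA channel, showed the clearest rise. It stood at 288, 286 and 286 CPM in siNT and at 429, 423 and 421 CPM in siMt2 libraries, with replicates no more scattered than counting error (log2 fold change 0.57, SE 0.043, edgeR adjusted p = 1.24e-09). Rps15a rose from 346, 384 and 347 to 509.9, 484 and 529 CPM (0.50, SE 0.050, edgeR adjusted p = 5.56e-08). Rps23, which lies at the decoding centre, rose from 498, 531 and 477 to 644, 654 and 745 CPM (0.44, SE 0.055). None of these groups overlapped. Rps18 (0.31, SE 0.044), Rps28 (0.31, SE 0.065) and Rps4x (0.28, SE 0.046) rose as well.

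Falls in the small subunit were fewer. Rps15 stood at 703, 737 and 719 CPM in siNT and at 555, 548 and 389 CPM in siMt2 libraries (log2 fold change -0.52, SE 0.15, edgeR adjusted p = 0.0456), with siMt2 replicate 3 far below its group. Leaving out siNT replicate 1, 2 or 3 or siMt2 replicate 2 ended the call (adjusted p = 0.117, 0.125, 0.109 and 0.0787 in edgeR), as did upper quartile scaling (0.0653) and no count filter (0.0883). Without siMt2 replicate 3 the change was -0.38 (edgeR adjusted p = 2.25e-12). Rps12 fell from 356, 346 and 339.6 to 282, 278 and 327 CPM (-0.24, SE 0.056). Rps16 fell from 686, 694 and 650.3 to 569, 562 and 633 CPM (-0.21, SE 0.047). In both of these genes siMt2 replicate 3 was the highest of its group and still below every siNT library.

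The small subunit members with the most counts changed little. Rps3a, which contacts the initiation factor eIF3, stood at 1093, 1082 and 1100 CPM in siNT and at 1007, 981 and 1112 CPM in siMt2 libraries, which overlapped (log2 fold change -0.08, 95% interval -0.17 to 0.0097, edgeR adjusted p = 0.129). It passed as lower without siMt2 replicate 3 (-0.13, edgeR adjusted p = 3.32e-04). Rpsa, the laminin receptor protein, stood at 956, 950.3 and 920.1 CPM in siNT and at 1006, 1009.5 and 962 CPM in siMt2 libraries (0.076, edgeR adjusted p = 0.103) and passed as higher without siMt2 replicate 3 (0.10, 0.00571). Rps3, at the mRNA entry, fell from 969.6, 1016 and 956 to 842, 846 and 943 CPM (-0.16, SE 0.045, edgeR adjusted p = 0.00503; 0.0551 without siMt2 replicate 1). Rps2, its neighbour, rose from 747, 745 and 743 to 822, 815 and 786 CPM (0.12, SE 0.038, edgeR adjusted p = 0.0142). Rps2 no longer passed when siNT replicate 1, 2 or 3 or siMt2 replicate 1 was left out, with adjusted p from 0.051 to 0.0673 in edgeR. Of the 7 genes listed for the mRNA channel, 3 were higher and 2 lower. The share that passed, 71.4%, was near the 70.3% of tested genes with a mean of at least 100 CPM (50.9% of all genes).

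Rps27a, which is made as a fusion with ubiquitin, had the largest log2 fold change in size of all tested members and did not pass. It stood at 234, 245 and 451 CPM in siNT and at 615, 469 and 748 CPM in siMt2 libraries (log2 fold change 0.96, SE 0.36, edgeR adjusted p = 0.0934). The groups did not overlap, but siNT replicate 3 lay close to siMt2 replicate 2. Without siNT replicate 3 the gene passed (1.35, edgeR adjusted p = 0.0263), and DESeq2 and limma-voom passed it on all libraries (adjusted p = 0.0328 and 6.71e-04). RefSeq names 29 pseudogenes after it, against a median of 10.5 for tested members. Rps19, often mutated in Diamond-Blackfan anaemia, an inherited failure of red cell production, stood at 97.5, 103 and 134 CPM in siNT and at 88.2, 79.9 and 101 CPM in siMt2 libraries (-0.34, SE 0.14, edgeR adjusted p = 0.0695). It passed as lower without siNT replicate 1 (-0.43, edgeR adjusted p = 0.0111), without a count filter (3.1e-05), and by DESeq2 (0.0272) and limma-voom (0.02). Without siNT replicate 3, the highest of its group, the change was -0.17 (edgeR adjusted p = 0.167), and without siMt2 replicate 2 it was -0.26 (0.199). Of the 18 tested members tied to that disease, 6 were higher and 4 lower. The share that passed, 55.6%, stood beside 50.9% of all genes and 70.3% of tested genes with a mean of at least 100 CPM.

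Paralogues, proteins encoded by a second gene that resembles a standard ribosomal protein, did not keep a fixed ratio to their partners. Of 4 tested, 2 were higher and 1 lower, against 50.9% of all genes that passed. Rpl22l1 stood at 47.0, 45.4 and 50.1 CPM in siNT and at 70.8, 66.2 and 78.2 CPM in siMt2 libraries (log2 fold change 0.58, SE 0.092, edgeR adjusted p = 2.53e-05). Its partner Rpl22 stood at 122, 125 and 114 and at 128, 125 and 135 CPM and did not pass (0.10, 95% interval -0.03 to 0.23). The count ratio of Rpl22l1 to Rpl22 was 0.386, 0.363 and 0.438 in siNT and 0.553, 0.531 and 0.5796 in siMt2 libraries. Rps27l, a p53 target, rose from 90.5, 91.3 and 88.1 to 109.9, 111 and 124 CPM (0.35, SE 0.069, edgeR adjusted p = 3.17e-04), while Rps27 stood at 131 ± 8.27 and 135 ± 22.1 CPM (0.025, 95% interval -0.18 to 0.23). Rpl7l1, which acts in ribosome assembly, fell from 249, 223 and 246 to 194, 171 and 183 CPM (-0.39, SE 0.059, edgeR adjusted p = 1.68e-05). Rpl7 rose from 514, 505 and 492 to 579, 601 and 607 CPM (0.24, SE 0.041, edgeR adjusted p = 5.81e-05). The count ratio of Rpl7l1 to Rpl7 went from 0.476 ± 0.0296 to 0.308 ± 0.0257 (SD, n = 3 each). These ratios did not overlap between groups for any of the 3 pairs; with 3 libraries against 3, an exact two-sided permutation test cannot give a p under 0.1. Rpl36al, a paralogue of Rpl36a, stood at 49.5, 61.4 and 52.1 CPM in siNT and 52.7, 52.3 and 45.4 CPM in siMt2 libraries and did not pass (-0.095, 95% interval -0.31 to 0.12). Rpl3l, a form found in heart and skeletal muscle, had 5 counts over all libraries, and Rpl10l and Rpl39l, known from testis, had 5 and 41.

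Summed over all rows, large subunit genes had 21647, 21969.7 and 21382 CPM in siNT and 20578, 20556 and 20559.5 CPM in siMt2 libraries. Small subunit genes had 12733, 13038 and 12838 CPM in siNT and 13429.9, 13189 and 14141 CPM in siMt2 libraries. Neither sum overlapped between groups, and the large subunit sum was 0.949 and the small subunit sum 1.06 times its siNT mean. Without siMt2 replicate 3 the log2 ratio of the small subunit sum was 0.051 in place of 0.078. The ratio of the sums was 1.70, 1.69 and 1.67 in siNT and 1.53, 1.56 and 1.45 in siMt2 libraries. Rplp0 and Rplp1 were the deepest falls of the large subunit in these same data, so leaving them out had to shrink the fall of its sum. Rplp0 and Rplp1 together differed by -1141.5 CPM between the group means, and the whole large subunit sum by -1101 CPM. Without both, the large subunit sums were 18175, 18534 and 18101 CPM against 18153, 18114 and 18663 CPM, which overlapped. Rps27a had the largest rise of the small subunit, so leaving it out likewise had to shrink the rise of that sum. Without Rps27a, the small subunit sums were 12499, 12794 and 12387 CPM against 12815, 12720.2 and 13393 CPM, which overlapped as well. The difference between the small subunit group means was then 416 CPM, against 717 CPM with Rps27a. All members together took between 3.38% and 3.47% of the counts in every library.

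**Figure D3:**
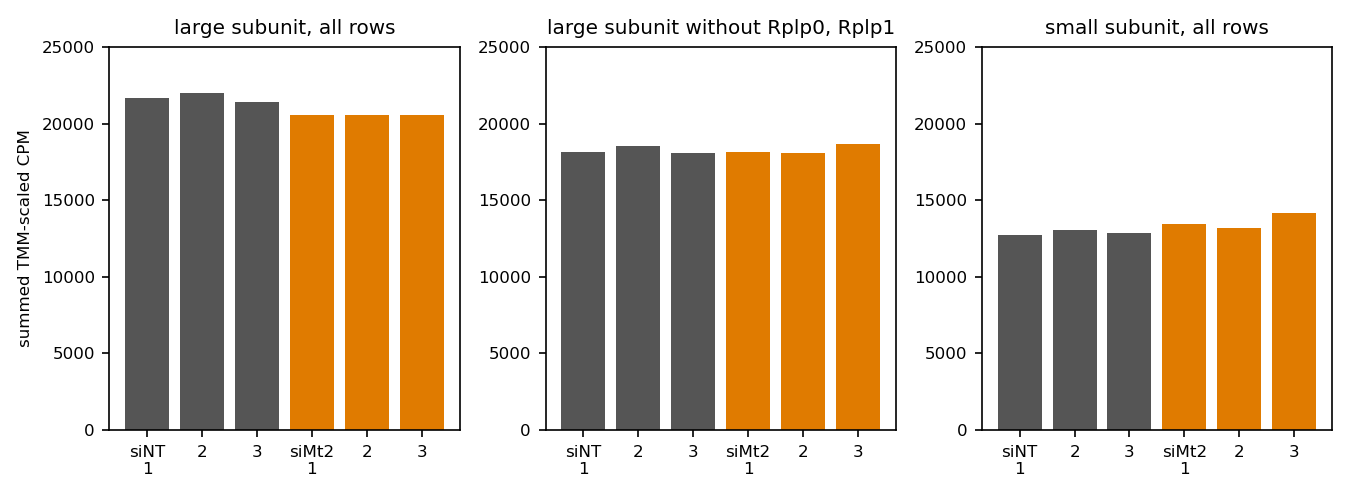
Summed TMM-scaled CPM of ribosomal protein rows in each library (bars, y axis from 0), for the large subunit, the large subunit without Rplp0 and Rplp1, and the small subunit; siNT libraries are grey and siMt2 orange. The large subunit bars are lower in siMt2 libraries in the first panel and level in the second.

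The standard genes of both subunits were not counted evenly. Rps6, the protein that S6 kinase phosphorylates, had 4 counts over all 6 libraries, Rps9 2, Rpl8 4, Rpl35a 45 and Rplp2 71, although ribosomes of all cells hold these proteins. Their low counts are therefore no measure of expression, and no fold is given. RefSeq names 864 pseudogenes after 79 of the 85 members in build GRCr8. Among 4334 rows with locus names only, 65 match a gene that RefSeq now names as a copy or pseudogene of a member or, in 1 case, as the member Rps9 itself (40 counts). These rows held 3.39% as many counts as the members. A row that RefSeq names Rplp2l2 held 2222 counts against 71 in Rplp2, and 1 named Rpl8-ps7 held 914 against 4 in Rpl8. The row named Rpl30l2 held 8566 counts against 4305 in Rpl30, and that named Rpl17-ps16 held 7362 against 8952 in Rpl17. Of 27 such rows tested, 3 were higher and 2 lower in siMt2 libraries. The share that passed was 18.5%, against 50.9% of all genes and 64.5% of members. The tested copy rows held from 57 to 8566 counts over all libraries, and the part of low counts in that share was not tested. Rpl8-ps7 was among the copy rows that were higher (log2 fold change 0.45, edgeR adjusted p = 0.00461), while Rpl30l2 stood level (0.017, 0.808). With the copies added to their members, 29 members were higher and 21 lower, of 79 tested. Rpl30 was higher on its own row (0.21, edgeR adjusted p = 0.0305) and did not pass with its copy added (0.087, 0.16). Its call was also lost by DESeq2 (0.0786), limma-voom (0.0612), at equal depth (0.139) and without siNT replicate 1, 2 or 3 or siMt2 replicate 3 (adjusted p from 0.0539 to 0.119 in edgeR).

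Replicates of ribosomal protein genes scattered more in the siMt2 group than in the siNT group. For the 72 members with a mean of at least 100 CPM, the median coefficient of variation beyond counting error was 2.02% in siNT and 6.48% in siMt2 libraries. For 2309 other genes above the same level it was 1.42% and 3.41%. It exceeded 10% in the siMt2 group for 18 tested members, of which 4 were called higher, 5 lower and 9 did not pass. Over all genes tested, 50.9% passed. At a mean of at least 100 CPM, scatter in the siMt2 group exceeded 10% for 15 of 72 members and for 216 of 2309 other genes. Across the 76 tested members, the number of RefSeq pseudogenes and this scatter had a Spearman's rho of -0.068 in siNT and -0.077 in siMt2, a description over genes that share libraries. The median number of pseudogenes was 12 for the 18 scattered members and 10 for the other tested members. Members called higher, lower and not passing had medians of 11.5, 10 and 10.

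In replicate 3 of the siMt2 group, 53 of 76 tested members lay above the mean of the other siMt2 libraries (median log2 ratio 0.092), while a few lay far below it. Rpl36, at the extreme, stood at 174, 121 and 150.05 CPM in siNT and at 124, 158 and 39.8 CPM in siMt2 libraries (log2 fold change -0.41, 95% interval -1.69 to 0.88). The log2 ratio of replicate 3 to the mean of the other siMt2 libraries was -1.83. Leaving out 1 library gave log2 fold changes from -0.72 (without siMt2 replicate 2) to -0.10 (without siMt2 replicate 3), none of which passed. Rps10, Rps10l1, Rpl15 and Rps15 had such ratios of -0.68, -0.59, -0.55 and -0.50. At a mean of at least 100 CPM, a ratio below -0.5 was found for 4 of 72 members (5.56%) and for 2.17% of the other genes. Rpl27a stood at 546, 549.7 and 545 CPM in siNT and at 644, 684 and 473 CPM in siMt2 libraries. It did not pass (0.14, edgeR adjusted p = 0.488) and passed as higher without siMt2 replicate 3 (0.28, 6.86e-09). Rps10 passed as higher without that library too (0.33, edgeR adjusted p = 0.0358), against 0.17 (0.571) with it. That library also had the lowest total count; the part of depth or library quality in its values was not tested.

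**Figure D4:**
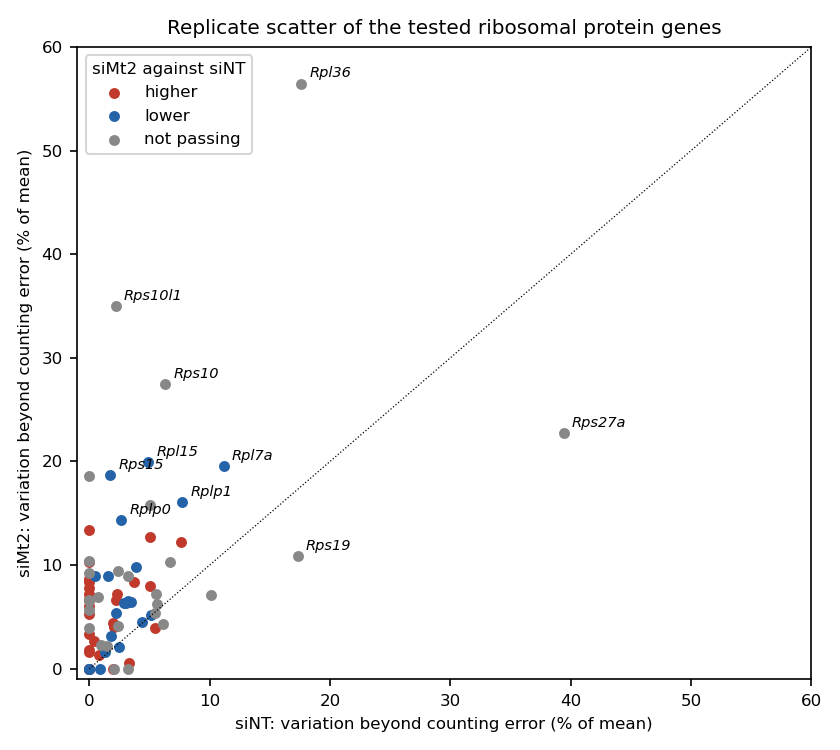
Coefficient of variation beyond counting error of the 3 siNT libraries (x axis, % of mean) and of the 3 siMt2 libraries (y axis) for each of 76 tested ribosomal protein genes, coloured by the call of siMt2 against siNT. Most points lie above the dotted line of equal scatter; Rpl36 reaches 56.5% in siMt2 and Rps27a 39.4% in siNT.

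Ribosomal proteins with other names were mixed too. Rack1, a scaffold protein of the small subunit, rose from 647, 648 and 613 to 728, 699 and 729 CPM (log2 fold change 0.18, SE 0.041, edgeR adjusted p = 0.00117). The fusion gene Fau fell from 276, 271 and 266 to 241, 236 and 204 CPM (-0.24, SE 0.057). Of 14 genes for elongation factors and other proteins with TOP mRNAs, 5 were higher and 6 lower. The share that passed was 78.6%, against 50.9% of all genes and 70.3% of tested genes with a mean of at least 100 CPM. Eef2, the factor that moves the ribosome along the mRNA, fell from 4340.2 ± 77.9 to 3004 ± 88.9 CPM (-0.53, SE 0.033, edgeR adjusted p = 6.26e-11). Tpt1 fell from 1213 ± 26.0 to 867 ± 4.22 CPM (-0.48, SE 0.037) and Eif3f by 0.50 on the log2 scale, while Eif3e rose (0.47, SE 0.061).

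Among genes that make ribosomes, 12 of 56 biogenesis factors tested were higher and 17 lower, with a median log2 fold change of -0.029. The share that passed, 51.8%, was near the 50.9% of all genes. The nucleolar protein gene Ncl rose from 601 ± 19.1 to 1257 ± 75.9 CPM (1.06, SE 0.045, edgeR adjusted p = 1.21e-13), whereas Nolc1 (-0.45, SE 0.045), Utp20 (-0.82, SE 0.082) and Nop2 (-0.61, SE 0.064) fell. Of 15 genes of RNA polymerase I and its factors, 2 were higher and 2 lower (26.7% passed). Taf1d (0.94, SE 0.11) and Ubtf (0.36, SE 0.069) rose, and Rrn3, which brings the polymerase to the ribosomal RNA promoter, fell (-0.66, SE 0.096). Of 23 growth signalling genes 9 were higher and 5 lower (60.9% passed). Myc, a transcription factor that raises ribosome production, went from 50.2, 38.2 and 39.8 to 68.0, 68.1 and 76.8 CPM (0.72, SE 0.11, edgeR adjusted p = 1.06e-05). Ddit4, which restrains mTOR, rose (0.62, SE 0.083), and so did Eif4ebp1 (0.32, SE 0.075), while Tsc1 fell (-0.28, SE 0.075).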

How the data were processed

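Build rn6, HISAT2 2.2.1, Trimmomatic 0.40, featureCounts, DESeq2 and limma stand in the submitters' processing notes; strand, settings and the handling of multiply matching reads are not given in the sources used here. Per library, the authors deposited raw counts per gene, with 18237 rows; 25 rows whose names had become dates (0.26% of counts) stayed in library sizes and tests unnamed, and 0 columns lacked a sample. Groups and replicate numbers came from the sample titles. After filterByExpr (minimum count 10) and TMM scaling in edgeR 4.0.16 (R 4.3.3), the two-sided quasi-likelihood test with robust dispersions was run on all 6 libraries, with Benjamini-Hochberg adjustment over 11726 genes and a threshold of 0.05. Log2 fold changes are siMt2 over siNT. Scatter is the squared coefficient of variation minus the mean inverse count, as a root. At this depth 3 counts equal 0.438 to 1.06 CPM. Same-group libraries differed by a median chi-square of 1.57 to 2.23 times that of counting error alone, so none was taken as a repeat. The procedure was tested on simulated data. Per-library values were given for the 5 largest rises and falls without overlap and the 4 members with most counts per subunit, and for stalk, 5S and paralogue genes; other lists name up to 4 genes with the smallest adjusted p, and further members were named after their values were seen. Some genes are counted but not reported here by name. The members and lists were chosen with earlier results of these data known. Alternatives were DESeq2 1.42.0, limma-voom (limma 3.58.1), other scalings and filters, a replicate block, thinning, and libraries left out; pooling of copy rows was added after seeing the data.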

Additional observations from a re-analysis of the deposited data

How the results depend on the processing

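Of the 49 called members, 37 (24 higher, 13 lower) kept their call in all 16 alternative fits and 0 changed sign; of the 27 not called, 12 passed in at least 1. Over these fits the count of members higher lay between 24 and 31 and of members lower between 16 and 25, all within 1.5 times the values reported. Upper quartile scaling, which moved the median of all genes by 0.039 on the log2 scale, gave 31 higher and 17 lower; the DESeq2 test gave 28 and 19. Leaving out 1 library gave 24 to 30 higher and 16 to 25 lower. The log2 ratio of the large subunit sum, -0.075, was -0.038 with upper quartile scaling, and turned to 0.021 without Rplp0, Rpl6 and Rpl41, the 3 members with the most counts, each of which fell; the small subunit sum, 0.078, was 0.115 and 0.116 with upper quartile scaling and without its 3 members with the most counts. The log2 fold change of Rps10, 0.17, lay between -0.015 (without siMt2 replicate 2) and 0.33 (without siMt2 replicate 3); the cause was not tested. With the replicate number as a block, 29 members were higher and 22 lower; Rps15 and Rpl21 lost their call, and Rps27a, Rps19 and Rpl31 were among those that gained one. The numbers showed no sign of pairing the samples. Same-numbered libraries' deviations from their group means correlated at -0.0018, -0.06 and 0.023, and siNT replicate 1 correlated best with siMt2 replicate 2 (0.0755). With 3 libraries per group, these values cannot show whether a weak pairing exists. Members with too few counts for the filter, such as Rpl35a and Rplp2, were not tested.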

Other observations

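Ribosomal proteins that hold zinc in a finger were looked at after their values were seen, because the targeted metallothionein binds zinc; no test was made of them as a group. Of the 7 that meet the name rule, 4 were higher in the siMt2 libraries, namely Rpl37a (log2 fold change 0.64), Rps26 (0.57), Rpl36a (0.31) and Rps29 (0.29), 0 were lower and 3 did not pass. Those 3 were Rpl37 (-0.0063), Rps27 (0.025) and Rps27a (0.96). Since 36.8% of all tested members and 25.8% of all genes were higher, these values describe the genes named and no more.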
